A study of Rattus norvegicus with 6 samples.

Results

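The subunits of the serine/threonine protein phosphatases were read in the prelimbic cortex (PL) of rats with a chronic nerve injury. A gene was taken as a member when an array probe set carried its symbol alone and that symbol began with Ppp and a digit, and the digit placed it among PP1, PP2A, PP3 (calcineurin) or PP4 to PP6. The rule gave 68 of the 14217 genes measured, read by 111 of the 20826 probe sets with 1 symbol, and it used no measured value. PP1 held 37 of these genes, PP2A 16, calcineurin 5 and PP4 to PP6 10. All 68 had the same symbol in RefSeq, which lists 83 protein-coding genes of such names; the other 15, among them the glycogen-targeting subunits Ppp1r3c, Ppp1r3e and Ppp1r3g and the PP1 inhibitor Ppp1r14d, were not analysed here.

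Total RNA came from the PL contralateral to the operated nerve, in male Sprague-Dawley rats bought at 6 to 7 weeks of age, and was hybridized to Affymetrix rat genome arrays 14 days after surgery. In the SNI group (spared nerve injury, 3 samples) the tibial and common peroneal branches of the left sciatic nerve were cut and the sural branch was spared, while in the control group (3 samples) the same nerves were exposed and left uncut, so that both groups underwent anesthesia and surgery. The sources used here do not say whether a sample was 1 rat or several, and the p-values therefore rest on how far these arrays differed, part of which may be technical. The deposited values are on a log2 scale with the 6-sample median of each probe set taken off, so a value says how far a sample lay above or below the middle sample and not how much mRNA there was. For that reason levels could not be compared between genes, and the labelled tissue could not be checked against the levels of its markers. In bulk tissue, fewer cells of a type and less RNA per cell cannot be told apart.

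Some arrays stood apart before any gene was compared. The 18 hybridization control probe sets, which are spiked in and read no rat mRNA, were 0.27 higher in the SNI group. Their means ran from 0.054 to 0.19 in the SNI samples and from −0.22 to −0.047 in the control samples, without overlap. A fit with these controls as a covariate can therefore hardly separate them from the group, and its differences below are imprecise. On the first principal component of all probe sets, control samples 1 and 3 stood at 21.9 and 16.04, apart from control sample 2 at −6.18 and the SNI samples at −11.3 to −9.81.

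Protein phosphatases remove phosphate from serine and threonine, and few catalytic subunits serve many substrates, because regulatory subunits place them and choose what they act on. PP1 works with scaffolds and inhibitor proteins, PP2A joins a scaffold, a catalytic and a variable B subunit, and calcineurin is switched on by calcium and calmodulin. In cortical neurons these enzymes oppose protein kinase A, CaMKII and Cdk5 at synapses, and calcineurin and PP1 are known for their part in synaptic depression.

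A difference below is the mean log2 value of the SNI group minus that of the control group, from a limma fit over all genes, with its standard error (SE) and a Benjamini-Hochberg adjusted p over all 14217 genes. No member passed an adjusted p of 0.05 in limma, nor did any gene of the array (0%), and none did by the methods' t-test either. At an unadjusted p under 0.05, limma gave 2 members with higher values in the SNI group, Ppp1r15a and Ppp1r9b, or 2.94% of the members beside 3.96% of all genes. It gave 4 with lower values, Ppp1r1b, Ppp2r1a, Ppp1r35 and Ppp5c, or 5.88% beside 9.19% of all genes. The methods' t-test at the same threshold gave 0 higher (all genes 3.67%) and 7 lower members (all genes 8.9%), namely Ppp1r1b, Ppp1r7, Ppp1r15b, Ppp2r1a, Ppp2r2b, Ppp2r5e and Ppp5c. Groups that did not overlap, so that every sample of one lay above every sample of the other, were found for 3 members with higher values in the SNI group (4.41%; all genes 6.39%) and 10 with lower values (14.7%; all genes 13.7%). The former were Ppp1r9b, Ppp1r18 and Ppp1r3a, and the latter Ppp1r1b, Ppp1r7, Ppp1r10, Ppp1r14a, Ppp1r15b, Ppp1r35, Ppp2r1a, Ppp2r2b, Ppp2r5e and Ppp5c. Neither direction therefore held a share of members far from that of all genes.

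**Figure D1:**
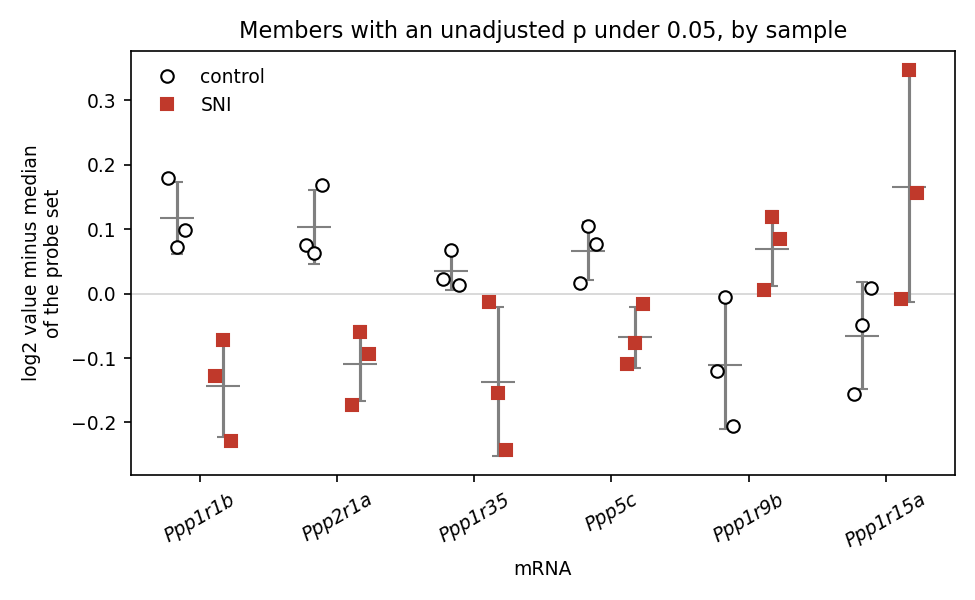
The vertical axis is the log2 value minus the median of the probe set, for the 6 members with an unadjusted p under 0.05, with open circles for control samples, filled squares for SNI samples, a horizontal line for the group mean and bars for the SD (n = 3). The groups do not overlap in 5 of the 6; in Ppp1r15a SNI sample 1, at −0.0086, lies below control sample 3, at 0.0086.

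The differences of the members were small. They ran from −0.27 for Ppp1r10 to 0.23 for Ppp1r15a, with a median of −0.029 beside −0.011 over all genes, and 47 of 68 (69.1%) were negative beside 54.8% of all genes. The 95% confidence interval of every member lay inside a 1.5-fold change in either direction, as it did for 98.0% of all genes. The median SE was 0.063 for the members and 0.070 for all genes.

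**Figure D2:**
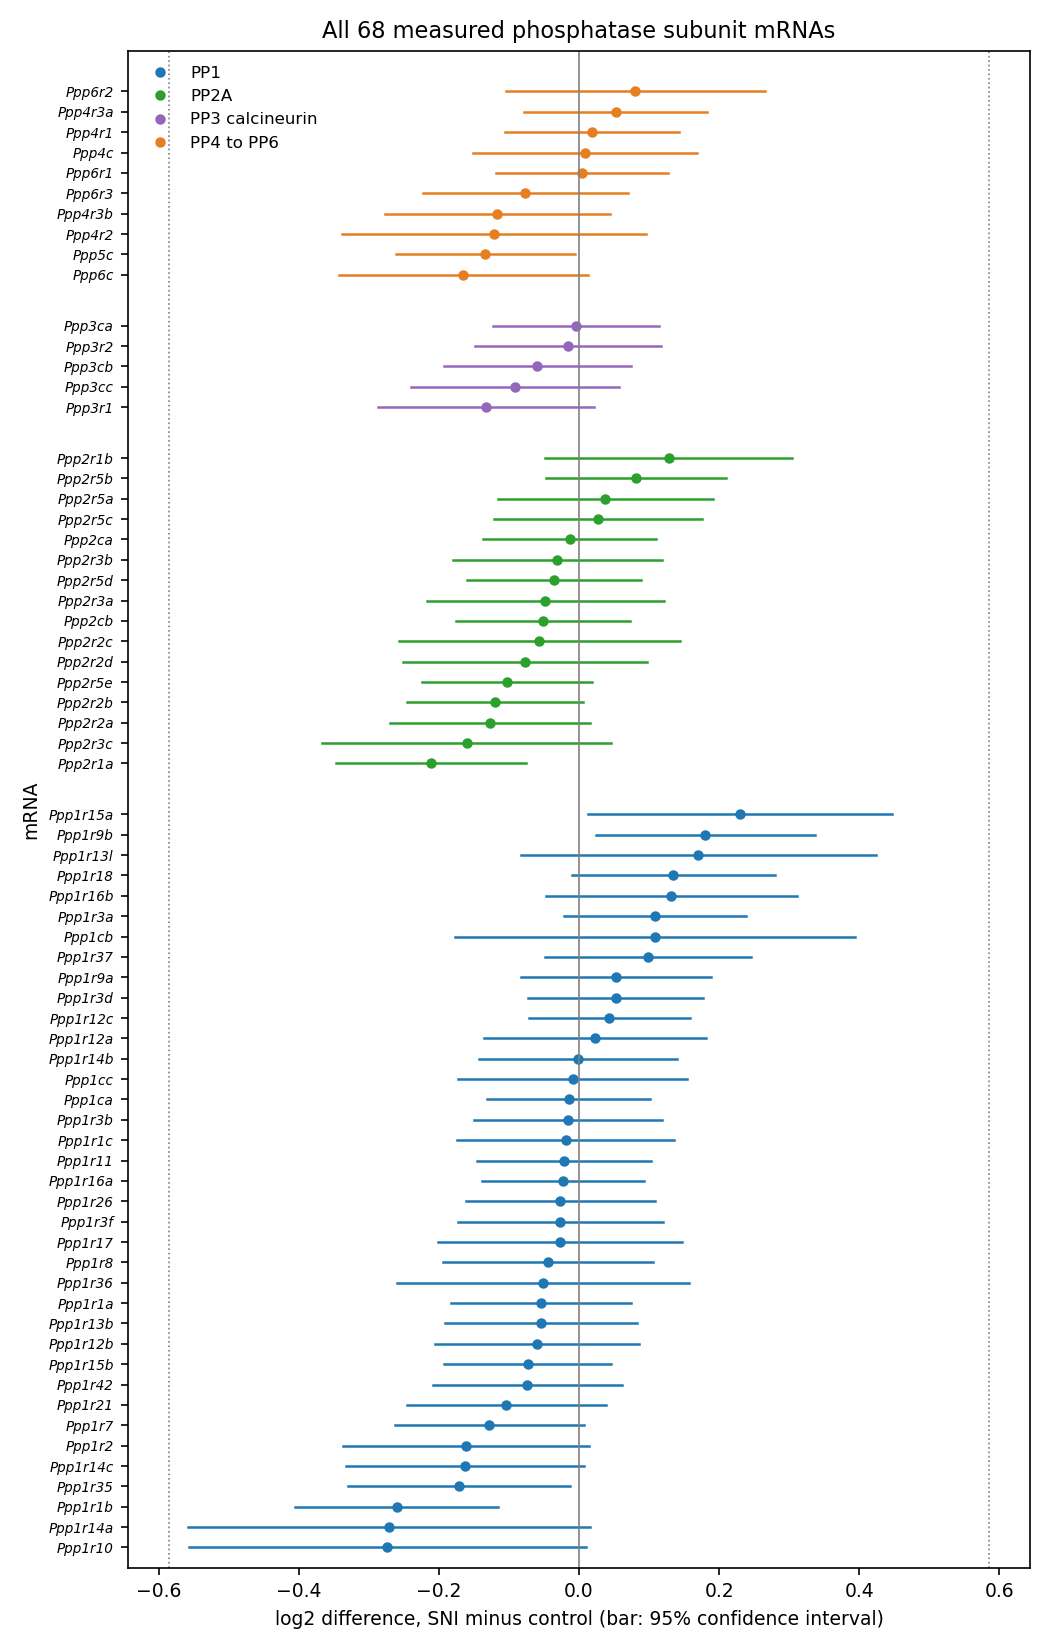
The horizontal axis is the log2 difference, SNI group minus control group, of each of the 68 members, coloured by phosphatase group, with bars for the 95% confidence interval of the limma fit and dotted lines at a 1.5-fold change. The interval leaves out 0 for 6 members, and none reaches the dotted lines (lowest bound −0.56, highest 0.45).

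The 4 groups had medians close to each other, −0.023 for PP1, −0.050 for PP2A, −0.060 for calcineurin and −0.036 for PP4 to PP6, and their ranges overlapped. With the hybridization controls as a covariate the medians were 0.0074 for PP2A, −0.018 for calcineurin and −0.0027 for PP4 to PP6. The median of PP1 was −0.0055 without SNI sample 1, and without both control samples 1 and 3 those of PP1, calcineurin and PP4 to PP6 were −0.0017, −0.012 and −0.015. Negative differences were found in 25 of 37 PP1, 12 of 16 PP2A, 5 of 5 calcineurin and 5 of 10 PP4 to PP6 members, beside 54.8% of all genes. Averaged over the 5 calcineurin subunits, the SNI samples 1, 2 and 3 stood at −0.034, −0.013 and −0.027, and the control samples at 0.036, 0.022 and 0.050. Calcineurin and PP4 to PP6 thus had SNI means below all control means, whereas for PP1 and PP2A control sample 2 lay among the SNI samples. The mean of all genes was also lower in every SNI sample, by a smaller amount (−0.0091 to −0.0032 against 0.00075 to 0.018).

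**Figure D3:**
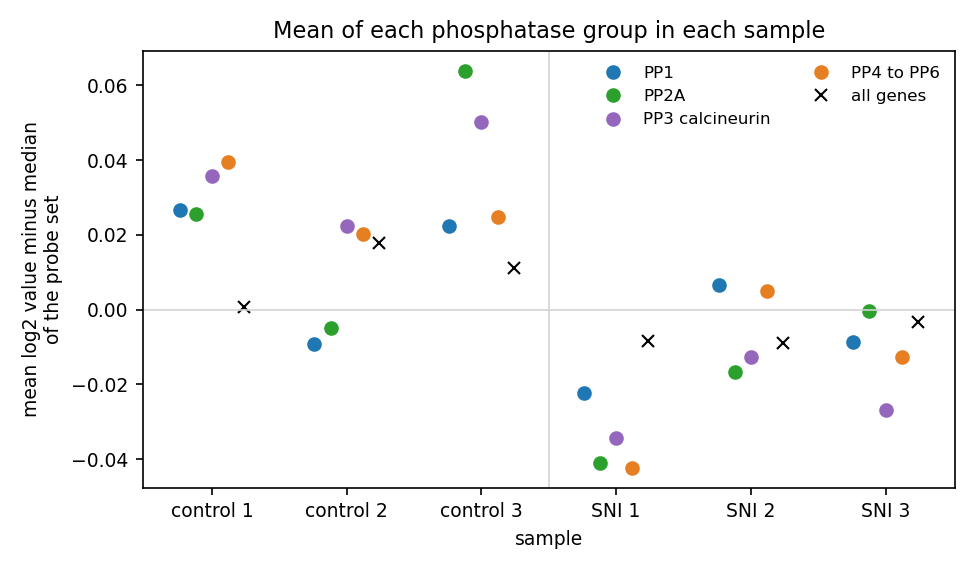
The vertical axis is the mean centred log2 value (as deposited) over the members of each phosphatase group and over all genes (crosses), in each of the 6 samples. Control samples 1 and 3 lie above 0 and SNI sample 1 below 0 for all 4 groups; PP2A spans the widest range, from −0.041 to 0.064.

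The catalytic subunits differed little between the groups. Of 11, 9 had negative (all genes 54.8%) and 2 positive differences, with a median of −0.015. At an unadjusted p under 0.05, 1 was lower, Ppp5c (all genes 9.19%). The sign turned under at least 1 other setting for all but Ppp3cc, Ppp5c and Ppp6c. Of the PP1 enzymes, Ppp1ca had a difference of −0.015 ± 0.050 (SE, n = 3) and Ppp1cc of −0.0092 ± 0.071. Ppp1cb, the isoform that joins the myosin phosphatase, read 0.13, −0.022 and −0.091 in SNI samples 1, 2 and 3, against 0.022, −0.39 and 0.066 in control samples 1, 2 and 3. Control sample 2 lay far below the other 5, the groups overlapped, and the difference was 0.11 ± 0.12. It was −0.037 without control sample 2, 0.40 without both control samples 1 and 3, and −0.17 once the hybridization controls entered as a covariate. The PP2A enzymes Ppp2ca and Ppp2cb differed by −0.013 ± 0.053 and −0.051 ± 0.054, and Ppp4c by 0.0088 ± 0.069. Ppp6c, the catalytic subunit of PP6, read −0.20, −0.032 and 0.0042 in SNI samples 1, 2 and 3, against 0.18, −0.0042 and 0.084 in control samples 1, 2 and 3. Its SNI samples were low and 2 of its control samples high, but control sample 2 lay between SNI samples 2 and 3, and the difference was −0.17 ± 0.077 (limma, unadjusted p = 0.064, adjusted p = 0.413); without control sample 2 it was −0.21, with an unadjusted p of 0.0299, and without both control samples 1 and 3 it was −0.073, with an unadjusted p of 0.472.

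**Figure D4:**
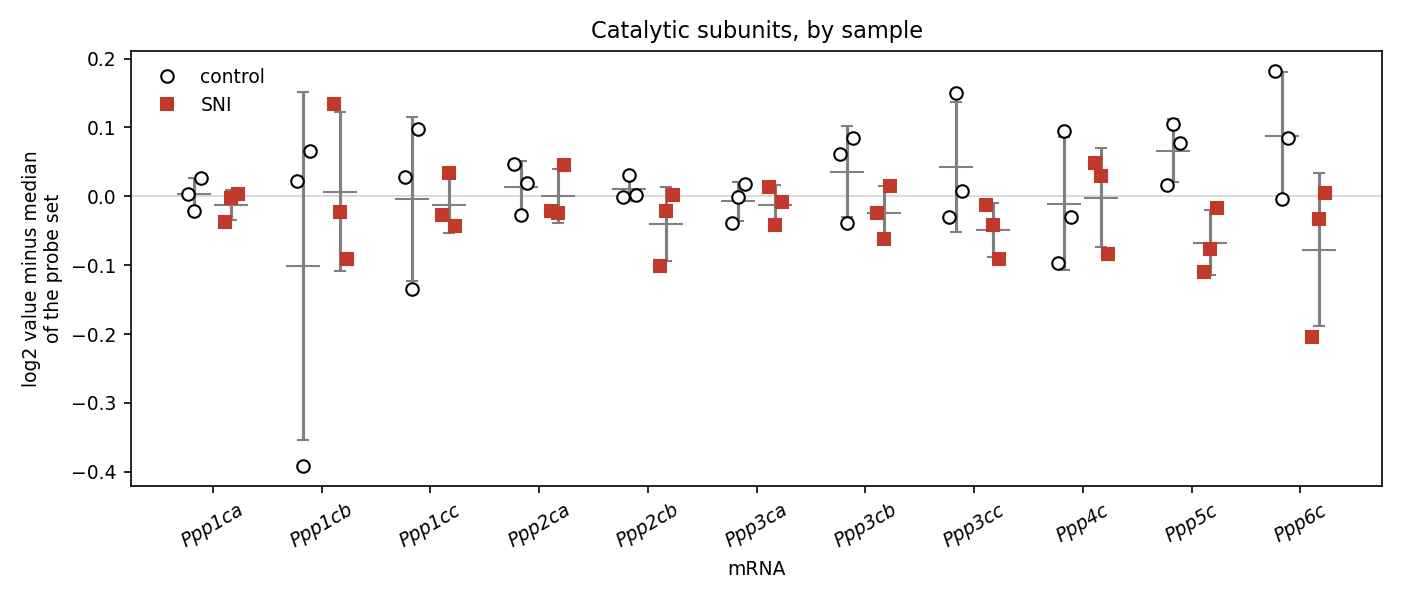
The vertical axis is the log2 value minus the median of the probe set for the 11 catalytic subunits, with open circles for control samples, filled squares for SNI samples, a horizontal line for the group mean and bars for the SD (n = 3). Ppp5c is the one enzyme with an unadjusted p under 0.05, and control sample 2 of Ppp1cb, at −0.39, is the lowest point.

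Among the proteins that inhibit PP1, all 9 measured had negative differences (all genes 54.8%), with a median of −0.054. At an unadjusted p under 0.05, where 9.19% of all genes were lower, 1 of the 9 was lower. That was Ppp1r1b (DARPP-32), which becomes a PP1 inhibitor when protein kinase A phosphorylates it downstream of dopamine D1 receptors. Ppp1r1b read −0.13, −0.072 and −0.23 in SNI samples 1, 2 and 3, against 0.18, 0.072 and 0.099 in control samples 1, 2 and 3. The groups did not overlap, as for 13.7% of all genes in this direction. The difference was −0.26 ± 0.063 (SE, n = 3), with a 95% interval of −0.40 to −0.12; in limma the unadjusted p was 0.00324 and the adjusted p 0.207, which ranked it 219th by p among all genes. Its unadjusted p stayed under 0.05 in 16 of 16 other ways of computing it, with differences from −0.34 to −0.22. It was read by 1 probe set, so ways that change only how probe sets are combined could not move its difference. The same holds for Ppp1r9b, Ppp1r15a, Ppp1r35 and Ppp5c. Ppp1r1b is a known marker of striatal projection neurons, and of 9 other striatal markers 2 had an unadjusted p under 0.05, both lower (Penk −0.40, Tac1 −0.50). Of all genes, 9.19% were lower by this threshold. The mean of these 9 markers was −0.071 to −0.014 in the SNI samples and 0.046 to 0.13 in the control samples, with a median difference of −0.10. The other 7 had an unadjusted p above 0.05, with differences of −0.17 for Pde10a, −0.16 for Drd1, −0.10 for Pdyn, 0.0041 for Rgs9, 0.022 for Drd2, 0.053 for Adora2a and 0.15 for Gng7. Whether an unequal share of neighbouring tissue entered the samples was not tested.

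The other inhibitors had smaller or more variable differences. Ppp1r14a (CPI-17), which inhibits the myosin phosphatase when protein kinase C phosphorylates it, read −0.061, −0.040 and −0.060 in SNI samples 1, 2 and 3, against 0.073, 0.040 and 0.54 in control samples 1, 2 and 3. The groups did not overlap, yet control sample 3 alone lay far above the rest, and the difference was −0.27 ± 0.12 (limma, unadjusted p = 0.0613, adjusted p = 0.405). Without control sample 3 it was −0.11, without control sample 1 or 2 −0.34 or −0.36 with an unadjusted p under 0.05, and with the hybridization controls as a covariate 0.018. Its relatives Ppp1r14c and Ppp1r14b differed by −0.16 ± 0.074 and −0.0010 ± 0.061. Inhibitor-2 (Ppp1r2) had −0.16 ± 0.076, inhibitor-1 (Ppp1r1a), a relative of DARPP-32, −0.054 ± 0.056, and inhibitor-3 (Ppp1r11) −0.022 ± 0.054. Ppp1r17 and Ppp1r1c had −0.027 and −0.019. None of these 8 had an unadjusted p under 0.05, and Ppp1r1a was at 0.0093 without both control samples 1 and 3.

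The subunits that bring PP1 to actin and myosin had mostly positive differences, 6 of 8 (54.8% of all genes were negative), with a median of 0.048. At an unadjusted p under 0.05, 1 of the 8 was higher (all genes 3.96%). Ppp1r9b (spinophilin), which anchors PP1 in dendritic spines, read 0.0056, 0.12 and 0.086 in SNI samples 1, 2 and 3, against −0.12, −0.0056 and −0.20 in control samples 1, 2 and 3. All SNI samples lay above all control samples, though SNI sample 1 and control sample 2 were close together. The difference was 0.18 ± 0.068 (SE, n = 3; limma, unadjusted p = 0.029, adjusted p = 0.324), and its unadjusted p stayed under 0.05 in 9 of 16 other ways of computing it. It was lost without SNI sample 2 or 3 or control sample 1 or 3 (differences of 0.13 to 0.18), and without both control samples 1 and 3 the difference was 0.076. Its relative Ppp1r9a (neurabin) differed by 0.053 ± 0.059. Ppp1r18 (phostensin), which binds actin filaments, read 0.16, 0.014 and 0.025 in SNI samples 1, 2 and 3, against −0.12, −0.069 and −0.014 in control samples 1, 2 and 3. The groups again did not overlap, with SNI sample 2 and control sample 3 nearest to each other, and the difference was 0.13 ± 0.063 (limma, unadjusted p = 0.0647, adjusted p = 0.415). Ppp1r16b had 0.13 ± 0.078, and the remaining 4, the myosin targeting subunits Ppp1r12a, Ppp1r12b and Ppp1r12c and Ppp1r16a, lay between −0.060 and 0.043.

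Of the subunits that direct PP1 to the translation factor eIF2α, Ppp1r15a (GADD34), made when cells are under stress, read −0.0086, 0.35 and 0.16 in SNI samples 1, 2 and 3, against −0.16, −0.049 and 0.0086 in control samples 1, 2 and 3. SNI samples 2 and 3 were high, SNI sample 1 was not, and the groups overlapped. The difference of 0.23 ± 0.094 (SE, n = 3) was the highest of all members (limma, unadjusted p = 0.0401, adjusted p = 0.351). The unadjusted p was no longer under 0.05 without SNI sample 2 (difference 0.14), SNI sample 3 (0.23), control sample 1 (0.19) or control sample 2 (0.24), and with the hybridization controls as a covariate the difference was 0.61. Ppp1r15b, made without stress, had −0.073 ± 0.052 (limma, adjusted p = 0.6).

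The sequence before the start of these genes was read because the 2 members with higher values and Ppp2r1a, the scaffold of PP2A described below, could then be set side by side. RefSeq windows in the rat build GRCr8 were given for 56 of the 68 members, Ppp1r1b not among them. The 250 bases before the start are printed 5′ to 3′ on the strand of the gene. Capitals mark the letters searched on both strands, TGACGTCA (a cAMP response element), TGACG (part of the former, so that it is counted there too), TATAAA near many start sites, the GC box GGGCGG and lastly CCAAT. Ppp1r15a lies at chr1:105139597-105139846 (minus strand), Ppp1r9b at chr10:80434650-80434899 (plus strand) and Ppp2r1a at chr1:69212948-69213197 (plus strand).
Ppp1r15a: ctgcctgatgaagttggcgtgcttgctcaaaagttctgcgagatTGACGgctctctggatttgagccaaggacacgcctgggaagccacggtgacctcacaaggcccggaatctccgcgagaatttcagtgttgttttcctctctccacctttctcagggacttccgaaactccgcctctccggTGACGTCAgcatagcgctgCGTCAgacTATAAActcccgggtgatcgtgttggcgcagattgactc
Ppp1r9b: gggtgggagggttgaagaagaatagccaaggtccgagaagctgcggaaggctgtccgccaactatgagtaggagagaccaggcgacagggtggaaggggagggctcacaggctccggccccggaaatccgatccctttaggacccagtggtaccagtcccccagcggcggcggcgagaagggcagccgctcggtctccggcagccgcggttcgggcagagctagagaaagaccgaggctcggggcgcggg
Ppp2r1a: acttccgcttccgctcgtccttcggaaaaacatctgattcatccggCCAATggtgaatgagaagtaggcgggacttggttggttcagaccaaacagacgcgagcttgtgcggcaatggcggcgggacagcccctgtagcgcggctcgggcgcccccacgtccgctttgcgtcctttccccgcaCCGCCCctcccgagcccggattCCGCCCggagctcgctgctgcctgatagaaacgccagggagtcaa
In Ppp1r15a the letters TGACGTCA begin 66 bases before the start and TATAAA 39 bases before it, with further TGACG letters at 206 and, on the other strand, at 47. Ppp1r9b held none of the 5 sets of letters, and Ppp2r1a held CCAAT at 204 and GGGCGG on the other strand at 67 and 45.

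Over the members with a window, TGACGTCA stood in 4 of 56 (7.14%), against 1.78% of the windows of 27457 genes. Besides Ppp1r15a these were Ppp1r12c, Ppp2ca and Ppp2r2d, whose differences were 0.043, −0.013 and −0.077, so that the 4 genes with these letters did not share a direction. TGACG stood in 21 (37.5%; all genes 20%), GGGCGG in 30 (53.6%; 33.5%), CCAAT in 21 (37.5%; 36.1%) and TATAAA in 5 (8.93%; 14.1%). A match describes the sequence and is not a measured binding site. The windows of all genes were not limited to genes on the array, so the shares of the members are not set against a like background.

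The 3 nuclear PP1 subunits all had negative differences. Ppp1r10 (PNUTS), which holds PP1 at chromatin and at RNA polymerase II, read −0.054, −0.016 and −0.050 in SNI samples 1, 2 and 3, against 0.54, 0.14 and 0.016 in control samples 1, 2 and 3. The groups did not overlap, but control sample 1 lay far above the other samples and control sample 3 just above 0, and the difference was −0.27 ± 0.12 (limma, unadjusted p = 0.0568, adjusted p = 0.396). It was −0.12 without control sample 1 (unadjusted p = 0.1 in limma). It was −0.38 without control sample 3 and −0.75 with the hybridization controls as a covariate, both with an unadjusted p under 0.05. Ppp1r7 (Sds22) had −0.13 ± 0.058 and Ppp1r8 (NIPP1) −0.044 ± 0.065. Ppp1r35, a centrosomal protein, read −0.013, −0.15 and −0.24 in SNI samples 1, 2 and 3, against 0.023, 0.068 and 0.013 in control samples 1, 2 and 3. All SNI samples lay below all control samples, SNI sample 1 by little, and the difference was −0.17 ± 0.069 (limma, unadjusted p = 0.0375, adjusted p = 0.342), with an unadjusted p under 0.05 in 7 of 16 other ways of computing it. Leaving out any sample but SNI sample 1 lost it (differences of −0.18 to −0.12). The p53-binding subunits Ppp1r13b and Ppp1r13l had −0.054 and 0.17, the latter with an SE of 0.11. The 4 measured glycogen-targeting subunits, Ppp1r3a, Ppp1r3b, Ppp1r3d and Ppp1r3f, lay between −0.027 and 0.11, and Ppp1r21, Ppp1r26, Ppp1r36, Ppp1r37 and Ppp1r42 between −0.10 and 0.099, none with an unadjusted p under 0.05.

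In PP2A, the scaffold subunit on which the other subunits assemble was lower in the SNI samples. Ppp2r1a, the scaffold isoform found in most PP2A, read −0.17, −0.059 and −0.094 in SNI samples 1, 2 and 3, against 0.076, 0.064 and 0.17 in control samples 1, 2 and 3. The groups did not overlap. The difference was −0.21 ± 0.059 (SE, n = 3), with a 95% interval of −0.35 to −0.075 (limma, unadjusted p = 0.00723, adjusted p = 0.23). Both of its probe sets were lower, with differences of −0.15 and −0.27, and its unadjusted p stayed under 0.05 in 14 of 16 other ways of computing it, the exceptions being those without both control samples 1 and 3 and with the hybridization controls as a covariate. The other scaffold isoform, Ppp2r1b, read 0.14, 0.018 and −0.018 in SNI samples 1, 2 and 3, against −0.11, −0.19 and 0.046 in control samples 1, 2 and 3. Here the groups overlapped and the difference, 0.13 ± 0.076, was the highest in PP2A (limma, adjusted p = 0.522); without control sample 3 it was 0.19, with an unadjusted p of 0.0333.

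The variable subunits of PP2A, which choose its substrates, all had differences within −0.16 to 0.081. All 4 B subunits had negative differences, from −0.13 ± 0.062 for Ppp2r2a and −0.12 ± 0.054 for the neuronal Ppp2r2b to −0.057 for Ppp2r2c, with Ppp2r2d at −0.077. The 3 measured B″ subunits were negative too, Ppp2r3c at −0.16 ± 0.089, Ppp2r3a at −0.048 and Ppp2r3b at −0.031. Of the 5 B′ subunits, Ppp2r5a (0.038), Ppp2r5b (0.081) and Ppp2r5c (0.027) were positive, and Ppp2r5d (−0.036) and Ppp2r5e (−0.10) negative. No variable subunit had an unadjusted p under 0.05 in limma, and the difference between these families was not tested.

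All 5 calcineurin subunits had negative differences, none with an unadjusted p under 0.05. The sign turned for Ppp3ca and Ppp3r2 with the hybridization controls as a covariate and for Ppp3cb without both control samples 1 and 3. Ppp3ca, the main catalytic isoform in brain, read 0.014, −0.042 and −0.0088 in SNI samples 1, 2 and 3, against −0.038, −0.0016 and 0.017 in control samples 1, 2 and 3. The groups overlapped almost wholly, and the difference was −0.0046 with a 95% interval of −0.12 to 0.11. Ppp3cb had −0.060 ± 0.058 and Ppp3cc −0.091 ± 0.064. Ppp3r1, the calcium-binding B subunit, read −0.088, 0.0044 and −0.027 in SNI samples 1, 2 and 3, against 0.20, −0.0078 and 0.098 in control samples 1, 2 and 3. Control samples 1 and 3 were high, control sample 2 lay among the SNI samples, and the difference was −0.13 ± 0.067 (limma, unadjusted p = 0.083, adjusted p = 0.449); without control sample 2 it was −0.18, with an unadjusted p of 0.0174, and without both control samples 1 and 3 it was −0.029, with an unadjusted p of 0.682. Ppp3r2, the B isoform known from testis, had −0.016 ± 0.058.

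Among PP4 to PP6, 1 of 10 members was lower at an unadjusted p under 0.05 (all genes 9.19%) and none was higher (all genes 3.96%). Ppp5c, an enzyme with its own regulatory repeats that binds the chaperone Hsp90, read −0.11, −0.076 and −0.016 in SNI samples 1, 2 and 3, against 0.016, 0.11 and 0.078 in control samples 1, 2 and 3. The groups did not overlap, with SNI sample 3 and control sample 1 close together. The difference was −0.13 ± 0.055 (SE, n = 3; limma, unadjusted p = 0.0426, adjusted p = 0.358), and its unadjusted p stayed under 0.05 in 8 of 16 other ways of computing it. Leaving out any sample but control sample 1 lost it (differences of −0.16 to −0.11), and with the hybridization controls as a covariate the difference was −0.022. Of the regulatory subunits of PP4, which acts in DNA repair and at centrosomes, Ppp4r1 (0.019) and Ppp4r3a (0.052) were positive and Ppp4r2 (−0.12) and Ppp4r3b (−0.12) negative. Ppp4r2 had −0.23 without control sample 2, with an unadjusted p of 0.00286, and 0.10, the opposite direction, without both control samples 1 and 3, with an unadjusted p of 0.161. Of those of PP6, Ppp6r2 had the highest difference of these 10 members, 0.081 ± 0.080, while Ppp6r1 had 0.0044 and Ppp6r3 −0.077.

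Members read by several probe sets did not always give 1 answer. Of the 68, 38 had 1 probe set and 30 had several, and in 16 of these 30 the probe sets lay on both sides of 0. Some of the 16 did so by less than their SE, as in Ppp3ca (−0.013 to 0.0050). The share among all genes with several probe sets was not read. Probe sets lay furthest apart in Ppp2r5e, whose 5 ran from −0.31 to 0.055, in Ppp3r1, from −0.33 to −0.020, and in Ppp4r2, from −0.26 to 0.053. The lowest probe set of each had an unadjusted p under 0.05 in a limma fit over all 31042 tested probe sets (0.00663, 0.0169 and 0.0436), but the means over their probe sets did not. Ppp1r14c showed the same, with 1 probe set at −0.30 (unadjusted p = 0.00135, adjusted p = 0.126 in that limma fit) and the other at −0.024. Which probe set reads which transcript was not analysed here.

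**Figure D5:**
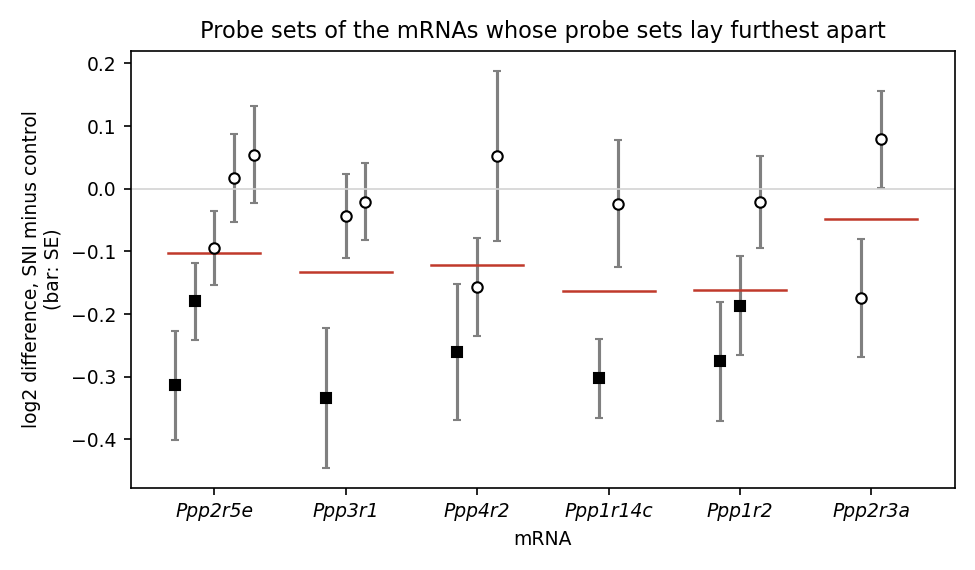
The vertical axis is the log2 difference, SNI group minus control group, of each probe set, with bars for its SE, for the 6 members whose probe sets lay furthest apart; filled squares have an unadjusted p under 0.05 and the red line is the mean over the probe sets. In 5 of the 6 the lowest probe set has an unadjusted p under 0.05 while the mean lies nearer to 0. The 6 were picked for this spread, so a probe set far from the mean follows from the choice.

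Genes that act with the phosphatases but are no subunits by name were read as lists, beside all genes, of which 54.8% had negative differences and 3.96% were higher and 9.19% lower by the same unadjusted threshold. Of 17 measured regulators of PP2A, 16 had negative differences and 3 an unadjusted p under 0.05, all lower, with Tiprl, which binds PP2A catalytic subunits, at −0.18 ± 0.065 and Mob4 at −0.16 ± 0.062 having the smallest p and Anp32e at −0.16. Of 15 calcineurin partners, 1 was higher and 3 lower at that threshold. The higher one was Akap5, which anchors calcineurin and protein kinase A at excitatory synapses, and it read 0.14, 0.10 and 0.18 in SNI samples 1, 2 and 3, against −0.15, −0.10 and −0.10 in control samples 1, 2 and 3. The groups did not overlap, and the difference was 0.26 ± 0.052 (limma, unadjusted p = 0.00104, adjusted p = 0.179). Fkbp1a (FKBP12), through which tacrolimus inhibits calcineurin, was among the lower at −0.15 ± 0.053, with the mitochondrial cyclophilin Ppif (−0.20) and the calcineurin regulator Rcan1 (−0.17). Of 13 further PP1 partners, 10 had negative differences, with a median of −0.044, and 1 was higher and none lower at that threshold. The higher gene was Phactr1, which binds PP1 and actin, at 0.16 ± 0.060. Its relative Phactr3 differed by 0.18 ± 0.093, with overlapping groups (limma, unadjusted p = 0.0911), and its relative Phactr4 by −0.065. Of 17 other serine/threonine phosphatases, 2 were lower, the mitochondrial Pptc7 at −0.30 ± 0.072 and Ppm1d at −0.15 ± 0.061.

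Of 20 genes of kinases that oppose PP1, PP2A and calcineurin, 1 was higher (all genes 3.96%) and 4 were lower (all genes 9.19%) at an unadjusted p under 0.05. The 20 include regulatory subunits of protein kinase A and the activator Cdk5r1, which are not themselves kinases. Prkacb, a catalytic subunit of protein kinase A, read −0.13, −0.13 and −0.17 in SNI samples 1, 2 and 3, against 0.23, 0.11 and 0.24 in control samples 1, 2 and 3. The groups were well apart, and the difference was −0.34 ± 0.058 (limma, unadjusted p = 0.00037, adjusted p = 0.143). Cdk5r1, the activator of Cdk5, differed by −0.28 ± 0.057 (limma, unadjusted p = 0.0012, adjusted p = 0.189). Protein kinase A and Cdk5 both phosphorylate DARPP-32, at different sites. The other lower genes were Cdk5 itself (−0.18) and Prkar1a, a regulatory subunit of protein kinase A (−0.14). The higher one was Camk2a, a CaMKII subunit of excitatory neurons (0.29).

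Some features of the samples moved with the groups, and others did so only in part. Of the cell type markers, microglia had a median difference of 0.22 with 8 of 12 genes higher at an unadjusted p under 0.05 (all genes 3.96%). Neurons had a median of −0.12 with 1 of 14 higher (all genes 3.96%) and 2 lower (all genes 9.19%). The medians for astrocytes, myelinating oligodendrocytes, their precursors and endothelium were 0.094, −0.15, 0.12 and 0.089. The per-sample mean of the 12 microglial genes ran from 0.056 to 0.16 in the SNI group and from −0.17 to −0.063 in the control group, and that of the 14 neuronal genes from −0.11 to 0.0011 and from −0.039 to 0.14. These means did not overlap for precursors and endothelium either, but did for neurons, astrocytes and myelinating oligodendrocytes. For the last, control samples 1, 2 and 3 stood at 0.14, −0.19 and 0.30, and SNI samples 1, 2 and 3 at −0.14, 0.0081 and −0.030. In 11 of the 47 members with a negative difference (23.4%; all genes 18.5%), control samples 1 and 3 lay above all SNI samples and control sample 2 did not. With the hybridization controls as a covariate Ppp1r1b had a difference of −0.34 (limma, unadjusted p = 0.0484, adjusted p = 0.589) and Ppp2r1a of −0.081 (unadjusted p = 0.544, adjusted p = 0.856), and without control samples 1 and 3 they had −0.22 and −0.17. The part of cell type shares in these differences was not tested.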

How the data were processed

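mRNA of the contralateral PL was measured on 6 Affymetrix arrays, with 3 SNI and 3 control samples assigned from their labels. The authors used RMA, took log2, normalized by quantiles and compared the groups with limma. As deposited, the log2 values of a probe set also have a median of 0 over the samples (within 4.78e-07), a centring on which the sources used here give nothing. Detection and signal over background could therefore not be read, and the number of arrays limits the precision. Of 31099 probe sets, 57 were array controls and were not tested. Symbols came from the platform annotation, and the 436 probe sets with several symbols and the 9780 with none were not used for genes; 1 of them carried a member's symbol beside another.

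A gene's value is the mean of its probe sets. Genes were fitted with lmFit and eBayes in limma 3.58.1 (R 4.3.3), SNI minus control, two-sided, without covariates, with Benjamini-Hochberg adjustment over all genes; the fit was tested on simulated data. With 3 samples a group, exact permutation cannot reach a p below 0.1, and it was not used. Figures were drawn in Python 3.11.15 with matplotlib 3.10.9. Alternatives covered repeated quantile normalization, aligned array medians, the methods' t-test, robust variances, other thresholds, the median of probe sets, fewer or single probe sets, the hybridization controls as a covariate, a replicate block and samples left out.

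The members and lists were chosen with earlier results of these data known. Members named by rule are the catalytic, scaffold and calcineurin B subunits, those with an unadjusted p under 0.05, the highest and lowest difference of each phosphatase group, Ppp1r1a, Ppp1r1b, Ppp1r9a, Ppp1r9b, Ppp1r15a, Ppp1r15b and the 3 with the widest spread of probe sets, and, of the other lists, the 2 genes with the smallest p. Further members were named to account for each role, and the further probe sets, striatal markers, list genes and motif-bearing genes after their values were seen.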

Additional observations from a re-analysis of the deposited data

How the results depend on the processing

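No member passed an adjusted p of 0.05 under the settings run; at 0.10 none did in the limma fit of all samples, while without control sample 2 Ppp1r1b (adjusted p = 0.0922), Ppp1r2 (0.0917) and Ppp4r2 (0.0893) did. At an unadjusted p under 0.05 (2 members higher, 4 lower), the methods' t-test gave 0 higher and 7 lower (all genes 3.67% and 8.9%). An unadjusted p under 0.01 in limma gave 0 higher and 2 lower (Ppp1r1b and Ppp2r1a), beside 1.1% and 3.04% of all genes. Each probe set by itself, with the smallest p of a gene's probe sets counted, gave 11 lower (all genes 11.6%) and, without overlap, 16 in place of 10 lower (all genes 16.6%). Leaving out 1 sample in turn gave 0 to 3 higher and 2 to 12 lower; the 12 came without control sample 2, where 14.6% of all genes were lower, and the 0 higher without SNI sample 2 or 3. The median differences then ran from −0.032 to −0.0055 for PP1, −0.070 to −0.021 for PP2A, −0.070 to −0.035 for calcineurin and −0.051 to −0.012 for PP4 to PP6. With the hybridization controls as a covariate, the medians were 0.0074 for PP2A, −0.018 for calcineurin and −0.0027 for PP4 to PP6, and 4.42% of all genes were lower. The cause was not tested, and since these controls did not overlap between the groups, the fit can hardly separate them from the group. Leaving out both control samples 1 and 3, a setting chosen after seeing the data, gave medians of −0.0017 for PP1, −0.047 for PP2A, −0.012 for calcineurin and −0.015 for PP4 to PP6. That setting left 6 members lower (Ppp1r1b, Ppp1r10, Ppp2r2a, Ppp3cc, Ppp5c and Ppp6r3) and 2 higher (Ppp1cb and Ppp2r1b), beside 10.9% and 6.58% of all genes. The lone control sample was there assumed to vary like the others.

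Same-numbered samples did not deviate together over all genes (correlations −0.022, −0.0074 and −0.045). This gave no sign that the numbers pair them, but cannot exclude that they were handled together. With a replicate block 2 members were higher and 4 lower, beside 3.51% and 7.46% of all genes. The lower ones were Ppp1r1b, Ppp1r10, Ppp1r14a and Ppp2r1a. Of 448 values of the members followed singly, 366 kept their direction and their side of an unadjusted p of 0.05, 32 lost it, 21 gained it and 29 changed sign. All 32 losses fell among the 6 members with an unadjusted p under 0.05, the only ones that could lose it. Of 16 other settings, Ppp1r35 lost it in 9, Ppp5c in 8, Ppp1r9b in 7, Ppp1r15a in 6, Ppp2r1a in 2 and Ppp1r1b in 0. Settings that only combine probe sets differently cannot move the difference of a member with 1 probe set.

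The sign changes all befell members without an unadjusted p under 0.05, and their cause was not tested. With the hybridization controls as a covariate, Ppp1ca was at 0.016, Ppp1cb at −0.17, Ppp1r9a at −0.026, Ppp1r14a at 0.018, Ppp2cb at 0.027, Ppp3ca at 0.010, Ppp3r2 at 0.11 and Ppp6r2 at −0.0013. Without both control samples 1 and 3, Ppp1ca and Ppp1r1a were at 0.0093, Ppp1cc at 0.12, Ppp2ca at 0.028, Ppp3cb at 0.015, Ppp4c at −0.096, Ppp4r2 at 0.10 and Ppp6r2 at −0.045. Leaving out 1 sample in turn gave −0.037 to 0.19 for Ppp1cb, −0.075 to 0.041 for Ppp1cc, −0.036 to 0.0040 for Ppp2ca, −0.020 to 0.010 for Ppp3ca, −0.056 to 0.013 for Ppp3r2, −0.034 to 0.061 for Ppp4c and −0.0039 to 0.14 for Ppp6r2.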
